A study of Homo sapiens with 27 samples.

Results

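The comparison described here sets HCC827 cells held in the MET inhibitor SGX-523 for 48 h against the same line held in it for 24 h. HCC827 is a human non-small cell lung cancer line, and each time has 3 arrays, so 6 of the 27 arrays in the series enter the comparison. All 6 cultures received SGX-523 at 1 uM, and the arrays were taken by their titles. The other HCC827 group, 3 arrays of cells given DMSO, the solvent, has no stated time. For this reason the length of exposure to the inhibitor and the time in culture cannot be told apart between 48 h and 24 h. The other 18 arrays hold the same 3 groups of EBC-1, a non-small cell lung cancer line, and of MKN-45, a gastric cancer line. Per the series' design, EBC-1 and MKN-45 are addicted to MET, whereas HCC827 has an activated receptor that it does not depend on and serves as the negative control. HCC827 stands for 1 tumour. Nothing beyond the name biological replicate says how the 3 cultures of a group were separated. The p-values and standard errors rest on a spread between replicate arrays pooled over all 9 groups of the 3 lines. That spread is not specific to these 6 arrays, and it may be technical.

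MET is the receptor tyrosine kinase for hepatocyte growth factor, and it drives the ERK and PI3K pathways in cells that have amplified its gene. HCC827 carries an activating deletion in EGFR, another receptor tyrosine kinase, and its growth rests on that receptor. SGX-523 blocks the kinase activity of MET and is selective for it. Epithelial cells of the lung also run an inflammatory programme: the transcription factor NF-kB, together with relatives of C/EBP and STAT3, turns on chemokines, acute-phase proteins and complement components, which the cell secretes. Chemokines of the CXCL1 to CXCL8 group attract neutrophils, acute-phase proteins such as serum amyloid A and lipocalin bind lipids or iron carriers, and complement proteins tag microbes.

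Levels below are the deposited log2 values, and a difference is the 48 h mean minus the 24 h mean on that scale, so 1 unit is 2-fold. Expression was tested for 12386 genes, each through 1 probe set. The median of an HCC827 array lay between 5.71 and 5.73 log2 units, and changes of genes below that level have a less certain size. Replicate 3 of the 24 h group stood apart. Its values correlated with those of the other 8 HCC827 arrays at Pearson's r between 0.962 and 0.967 over all probe sets, while the other 8 correlated among themselves at 0.993 to 0.998. It lay over 1 log2 unit below the mean of 24 h replicates 1 and 2 at 763 genes and over 1 unit above it at 142, and replicates 1 and 2 were over 1 unit apart at 0 genes. The control probe sets for ACTB gave a 3' to 5' log2 ratio of 3.40 on this array, against 2.29 and 2.24 on 24 h replicates 1 and 2 and between 2.0 and 2.44 on the 48 h and DMSO arrays. The control for ISGF3A gave 6.57 on this array, against 5.03 to 5.55 on the other 8 HCC827 arrays. The GAPDH ratio, 0.161, lay within the range of the other arrays, and the part of RNA quality in the results was not tested. The comparison was therefore fitted with all 6 arrays and without this array, and a gene is said to have risen or fallen only when it was called in the same direction both ways, at an adjusted p below 0.05. A difference given alone, with no setting named, is the one without replicate 3, and the value with all arrays stands beside it where it moves a risen or fallen gene by over 1.5 times.

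Epithelial markers were present. The 4 keratins KRT7, KRT8, KRT18 and KRT19 and all 16 genes of epithelial junctions lay above the median of the array on all 6 arrays, as did 7 of 16 genes of the lung lineage, among them NKX2-1 and NAPSA. Another 7 of the lung lineage genes, among them SFTPA1, SFTPD and SCGB1A1, lay above it on no array. Of the markers of other cell types, 1 of 10 fibroblast genes (PDGFRB) and 2 of 11 leukocyte genes (CD68 and TYROBP) lay above it on all 6 arrays. COL1A1, DCN and PTPRC were below it on every array. Summed on the linear scale, the fibroblast markers gave 214 to 241 at 48 h, against 213 to 255 at 24 h, and the leukocyte markers gave 800 to 833 at 48 h, against 743 to 873 at 24 h.

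Between 24 h and 48 h the inhibitor-treated cells raised secreted defence proteins and chemokines and lowered genes of ribosome assembly and DNA replication. With all 6 arrays, 3286 genes (26.5% of those tested) differed between the times, 1956 higher at 48 h (15.8%) and 1330 lower (10.7%). Without 24 h replicate 3, 3564 genes (28.8%) differed, 1743 higher (14.1%) and 1821 lower (14.7%). The calls met at 2314 genes (18.7%), of which 1366 rose (11%) and 948 fell (7.65%), and no gene was called in opposite directions. These counts depend on the fit. With only HCC827 arrays in it, 1059 genes were called with all 6 arrays, 4437 without replicate 3 and 1059 both ways. On simulated data, false calls exceeded the threshold in the fit with all 6 arrays. Most changes were small. The median difference, without replicate 3, was 0.36 among the genes that rose and -0.31 among those that fell, and 45 risen and 5 fallen genes changed at least 2-fold both ways. The 3 arrays at 48 h all lay above the 3 at 24 h for 2304 genes (18.6%) and all below them for 1798 (14.5%). The share of rising genes among the calls made with all 6 arrays, 59.5%, was 48.7% after quantile normalization and 42.8% after centring each array on its median. Among the genes called both ways it was 59.0%, 51.9% after quantile normalization and 46.0% after centring, so no preponderance of either direction held across the scalings. Over all tested genes the median difference was 0.0095 with all 6 arrays and 0.0030 without replicate 3.

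**Figure D1:**
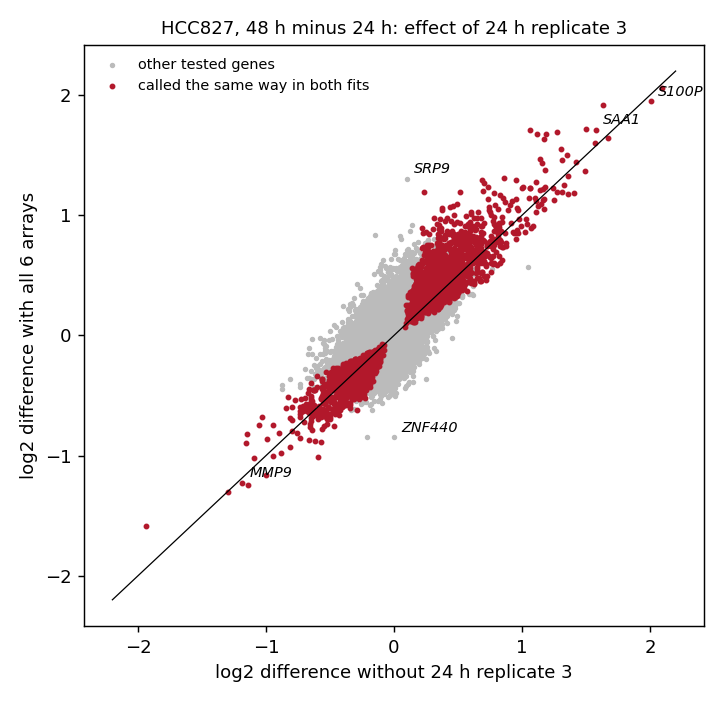
Each point is a tested gene, with its log2 difference (48 h minus 24 h) without 24 h replicate 3 on the horizontal axis and with all 6 arrays on the vertical axis; the line marks equal values. The 2314 genes called the same way both ways are red, and genes such as SRP9 (0.10 without the array and 1.30 with it) and ZNF440 (0.00 and -0.85) move with that array alone.

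SRP9, a subunit of the signal recognition particle, shows how far 24 h replicate 3 departs. Its levels were 11.05, 11.08 and 10.96 at 48 h, against 10.90, 10.96 and 7.32 at 24 h. ZNF440, a zinc finger gene, went the other way, with 9.19, 9.01 and 9.26 at 48 h, against 9.10, 9.21 and 11.69 at 24 h. Neither gene was called in either fit.

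Genes that were called both ways, did not overlap and had a level above the median of all genes numbered 868 higher (7.01%) and 726 lower (5.86%), and the 12 with the largest differences in each direction are described here. Many of the risen ones encode secreted or surface proteins of epithelia. S100P, a calcium-binding protein often raised in adenocarcinoma, had levels of 8.98, 8.92 and 8.60 at 48 h, against 6.95, 6.71 and 7.0 at 24 h. All arrays at 48 h lay above all arrays at 24 h, and the difference was 1.95 ± 0.08 (SE) with all 6 arrays and 2.01 ± 0.08 without replicate 3, a 4.02-fold rise (adjusted p = 5.88e-18). S100A9, a subunit of calprotectin, the metal-binding protein of inflamed tissue, had 8.84, 8.86 and 8.67 at 48 h, against 7.35, 6.89 and 7.20 at 24 h (1.67 ± 0.16 without replicate 3, adjusted p = 4.47e-09). AGR2, a disulfide isomerase needed for mucin folding, had 9.59, 9.69 and 9.51 at 48 h, against 8.24, 8.24 and 7.80 at 24 h. Its difference was 1.50 with all arrays and 1.35 without replicate 3, and its groups did not overlap.

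The same held for LY6D (1.46 with all arrays, 1.31 without replicate 3), a GPI-anchored surface protein, and for TSPAN8 (1.70 and 1.27), a tetraspanin of epithelial tumours. The other kept probe set of LY6D differed by -0.09 and was not called. CORO2A, an actin-binding coronin, differed by 1.56 and 1.30, and BST2, the tetherin that holds budding virus at the membrane, by 1.19 and 1.27. The 12 genes that lead the risen set are completed by SAA1, EGR1, CCL20, CFB and LCN2, described with their groups below.

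The falls were smaller. MMP9, the gelatinase that degrades basement membrane, had 6.46, 6.68 and 6.63 at 48 h, against 7.78, 7.78 and 7.90 at 24 h, and fell to 0.427 of its 24 h level with all arrays and 0.44 without replicate 3 (-1.19 ± 0.14, adjusted p = 1.13e-07). TMEM158, a membrane protein induced by RAS signalling, had 7.37, 7.33 and 7.62 at 48 h, against 8.55, 8.52 and 8.31 at 24 h (-1.02 with all arrays, -1.09 without replicate 3). In both genes every 48 h array lay below every 24 h array. The actin-filament proteins NEXN and AFAP1L2 fell by 0.89 and 0.87 on the log2 scale with all arrays, and by 1.15 and 0.99 without replicate 3. PMEPA1, an inhibitor of TGF-beta signalling, fell by 0.93 with all arrays and 0.81 without replicate 3, and FJX1, a secreted relative of the fly kinase four-jointed, fell by 0.71 and 0.80. Enzymes and growth genes made up the rest of the 12 that lead the fallen set. DPH2, which modifies elongation factor eEF2, had 8.92, 8.90 and 8.98 at 48 h, against 9.61, 9.58 and 10.22 at 24 h. ODC1, the rate-limiting enzyme of polyamine synthesis, fell by 0.67 with all arrays and 0.73 without replicate 3, and CHAC2, which degrades glutathione, fell by 0.81 and 0.90. In the same order, PIGW, an enzyme of GPI anchor synthesis, fell by 0.69 and 0.81, GPATCH4 fell by 0.72 and 0.70, and CCNE2, described with DNA replication, fell by 0.75 and 0.94.

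**Figure D2:**
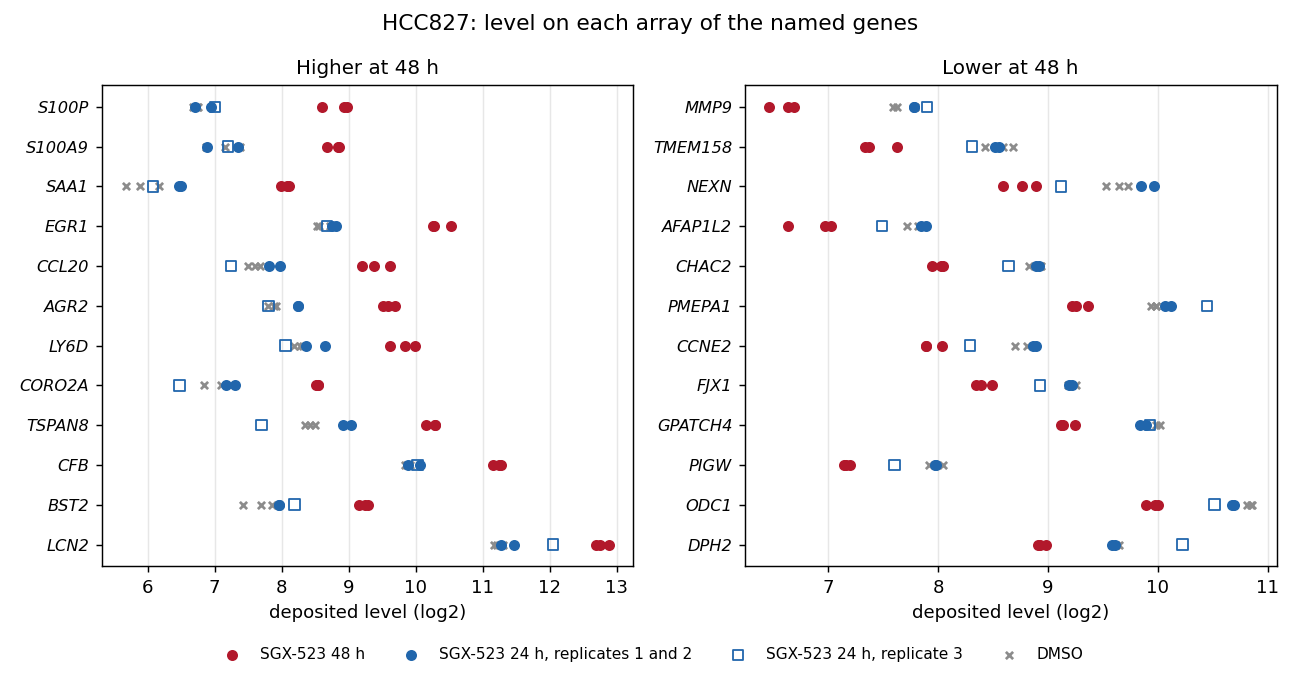
Deposited log2 levels (horizontal axis) on each HCC827 array for the 12 leading genes that rose and the 12 that fell: red circles for 48 h, blue circles for 24 h replicates 1 and 2, open blue squares for 24 h replicate 3, grey crosses for DMSO. In all 24 genes the 3 arrays at 48 h lie on 1 side of the 3 at 24 h, as the choice of the genes required.

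Most tested acute-phase and complement genes rose. Of 24 listed genes 12 passed the filter on low signal, 3 of them (C3, FGG and SAA2) only through the 48 h arrays, where they had to be high. Of the 12 tested members 11 rose and 0 fell (91.7%, where 11% of all tested genes rose), a count that includes those 3 and does not speak for the 24. At least 2-fold both ways was reached by 7 of the 11. The median difference of the list was 1.18 with all 6 arrays and 1.21 without replicate 3, beside 0.0095 and 0.0030 over all genes. These medians and the 2-fold count were also taken with C3, FGG and SAA2 included, which the filter favoured to be high at 48 h. LCN2, the lipocalin that sequesters bacterial iron carriers, had 12.75, 12.89 and 12.69 at 48 h, against 11.47, 11.28 and 12.05 at 24 h, a 2.65-fold rise without replicate 3 (1.41 ± 0.12, adjusted p = 3.08e-10). CFB, complement factor B of the alternative pathway, had 11.14, 11.27 and 11.24 at 48 h, against 10.06, 9.89 and 10.03 at 24 h (1.24 ± 0.11, adjusted p = 3.08e-10). SAA1, a serum amyloid A, had 8.07, 8.11 and 7.99 at 48 h, against 6.49, 6.47 and 6.08 at 24 h. In these genes the 48 h arrays were tight. They lay above every 24 h array, as the choice of the leading genes required.

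SAA2 is a near-identical neighbour of SAA1, so the probe sets of the pair may share signal. SAA2 differed by 1.92 with all arrays and 1.63 without replicate 3, and SAA1 by 1.71 and 1.58. C3, the central complement protein, rose by 1.36, C1R and C1S, the proteases of the C1 complex, by 1.04 and 0.69, and the fibrinogen chains FGB and FGG by 0.97 and 1.19, all without replicate 3. The protease inhibitors SERPINA3 and SERPINA1 rose by 1.33 and 0.73. CP, ceruloplasmin, was the member not called (0.41 with all arrays, adjusted p = 0.0867, and 0.36 without replicate 3, adjusted p = 0.163). For C3, FGG, SAA2 and SERPINA3 the level at 24 h was below the array median.

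Among chemokines and NF-kB targets, 11 of 20 tested members rose and 2 fell (the background shares are 11% and 7.65%). CXCL6, which rose, and IL6 passed the filter on low signal only through the 48 h arrays. The list's median difference was 0.65 with all 6 arrays and 0.52 without replicate 3. CCL20, the ligand of CCR6 that draws dendritic cells and lymphocytes, led, with 9.37, 9.61 and 9.20 at 48 h, against 7.97, 7.81 and 7.25 at 24 h (1.50 ± 0.18 without replicate 3, 2.83-fold, adjusted p = 2.36e-07). CXCL8, interleukin-8, had 11.15, 11.32 and 11.15 at 48 h, against 10.27, 10.36 and 9.86 at 24 h. CXCL1 had 11.43, 11.52 and 11.43 at 48 h, against 10.89, 10.82 and 10.25 at 24 h (0.61 ± 0.06, adjusted p = 6.21e-09). In all 3 the groups did not overlap, which for CCL20 the choice of the leading genes required. In each, 24 h replicate 3 was the lowest array, so the difference with all 6 arrays was larger: 1.72 for CCL20, 1.04 for CXCL8 and 0.81 for CXCL1.

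The other neutrophil attractants rose too, by 0.57 for CXCL2, 0.57 for CXCL3, 0.65 for CXCL5 and 1.06 for CXCL6 without replicate 3. With all arrays CXCL2 rose by 0.92 and CXCL6 by 1.71. CXCL1, CXCL2 and CXCL3 are close copies of each other, as are CXCL5 and CXCL6, and how far their probe sets share transcripts is uncertain. The cytokines IL1A (0.84) and IL1B (0.87) and the target gene TNFAIP2 (0.61) rose as well. Inhibitors of NF-kB moved in opposite directions. NFKBIA, the inhibitor that holds NF-kB in the cytoplasm, had 11.23, 11.29 and 11.19 at 48 h, against 10.81, 10.70 and 10.38 at 24 h (0.48 ± 0.05, adjusted p = 5.79e-09). TNFAIP3, the A20 enzyme that shuts the pathway down, fell, with 8.97, 9.01 and 8.92 at 48 h, against 9.49, 9.51 and 9.78 at 24 h (-0.54 ± 0.10, adjusted p = 0.000113). NFKB1, the p105 and p50 subunit, fell by 0.14 without replicate 3. IL6, LIF, CXCL10, CXCL16, CX3CL1, RELB and ICAM1 were not called both ways, with differences between -0.18 and 0.44.

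The promoters of this group were read from RefSeq (GRCh38.p14) for a core NF-kB motif, GGG, then any 2 bases (NN), then TTTCC, searched on both strands in the 250 bases before the start of each gene. No other motif was searched. The search was made after the values were seen. The motif lies in 473 of 27305 windows (1.73%), in 204 of 10123 windows of tested genes (2.02%) and in 10 of the 16 windows matched to members of the chemokine list (62.5%). The list was made up of chemokines and NF-kB targets, so a high share there follows from that choice and is not a result. By direction the motif was in 7 of 11 windows of list members that rose, in both windows of members that fell (NFKB1 and TNFAIP3) and in 1 of 3 of those not called (IL6). It was in 0 of 7 windows of the acute-phase list, which says only that these letters are absent there. Among other lists it was in 3 of 12 windows for MHC class I antigen presentation, 1 of 6 for reference genes and 0 of 20 for mitosis. The 50-base stretches below show the match in capitals, as written or as its reverse complement, for risen genes of each kind and for a fallen gene, TNFAIP3, which has 2 matches, of which the match farther from the start is shown. The stretches of CXCL2 and CXCL3 resemble that of CXCL1, and that of CXCL6 resembles that of CXCL5, so the windows are not independent.
CCL20: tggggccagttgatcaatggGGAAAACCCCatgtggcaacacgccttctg
CXCL1: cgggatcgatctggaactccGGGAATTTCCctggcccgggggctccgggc
CXCL5: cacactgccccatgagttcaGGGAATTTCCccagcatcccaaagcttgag
NFKBIA: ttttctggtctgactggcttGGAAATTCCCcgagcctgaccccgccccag
TNFAIP3: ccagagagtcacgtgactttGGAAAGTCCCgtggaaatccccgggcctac
The stretch of CCL20 lies at chr2:227813743-227813792 on the plus strand, that of CXCL1 at chr4:73869294-73869343 on the plus strand and that of CXCL5 at chr4:73998739-73998788 on the minus strand. The stretch of NFKBIA lies at chr14:35404801-35404850 on the minus strand and that of TNFAIP3 at chr6:137867172-137867221 on the plus strand. All are upstream of the annotated start of their gene. CCL20 and CXCL1, which rose, and TNFAIP3, which fell, thus carry a match at 79, 79 and 67 bases from the start, and a match is a description of the sequence, not evidence of binding.

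**Figure D3:**
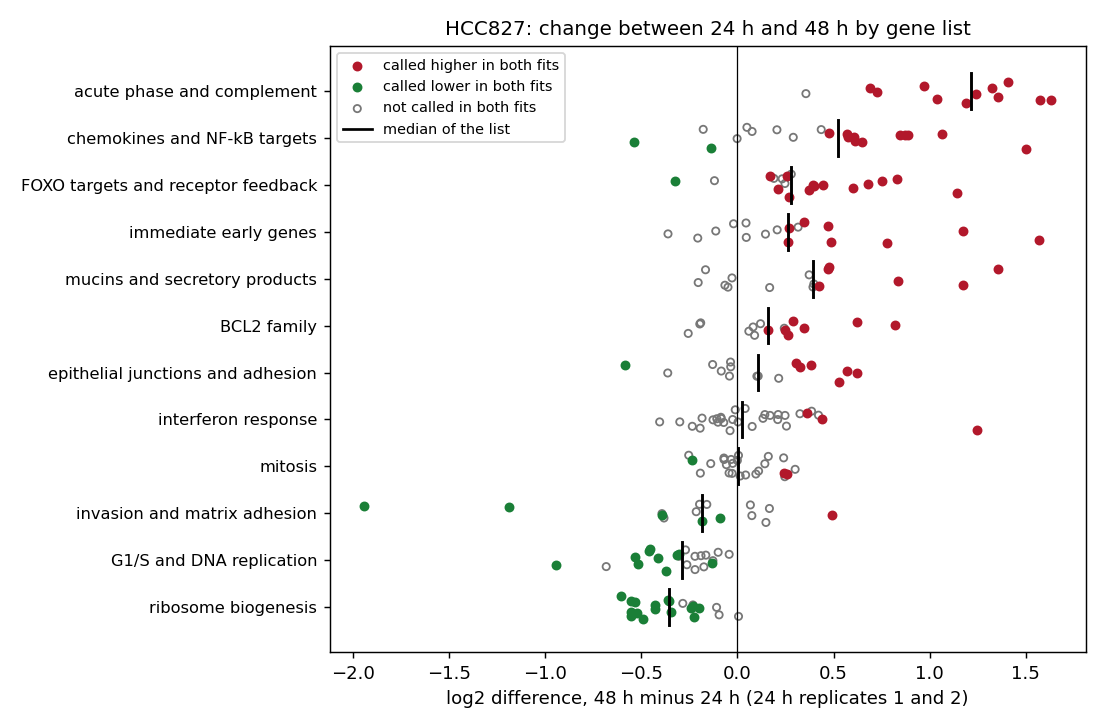
Log2 difference (48 h minus 24 h, 24 h replicates 1 and 2) of each tested member of 12 gene lists, with red points for genes that rose both ways, green points for genes that fell both ways, open points for the rest and a black bar for the median. The acute-phase list lies wholly to the right of 0 with a median of 1.21, and the replication list wholly to the left with a median of -0.29. In the acute-phase list C3, FGG and SAA2, and in the chemokine list CXCL6 and IL6, passed the filter only through the 48 h arrays.

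Secretory and surface epithelial genes moved with them. Of 15 tested mucins and secretory products 6 rose and 0 fell (40% risen, beside 11% of all tested genes): AGR2, MUC5B, SLPI, MUC4, CEACAM6 and MUC1. MUC5B, a gel-forming airway mucin, had 7.52, 7.62 and 7.52 at 48 h, against 6.50, 6.26 and 6.75 at 24 h (1.17 ± 0.14 without replicate 3, adjusted p = 2.44e-07). SLPI, a secreted inhibitor of neutrophil elastase, had 8.99, 9.09 and 8.80 at 48 h, against 8.20, 8.05 and 8.29 at 24 h. Both genes were higher on every 48 h array than on any 24 h array. Of 16 epithelial junction genes 6 rose and 1 fell (37.5% and 6.25%, beside 11% and 7.65% of all tested genes), although 2 rose after centring and 2 with HCC827 arrays alone in the fit. CLDN4, a tight-junction claudin, rose by 0.57 without replicate 3 and 0.37 with all arrays, but its level on 24 h replicate 3 (9.95) matched those at 48 h (9.94, 9.90 and 9.91). RAB25, an epithelial vesicle GTPase, rose by 0.62 with the same overlap. ESRP2, a splicing factor of epithelial cells, fell, with 8.76, 8.76 and 8.77 at 48 h, against 9.35, 9.34 and 9.36 at 24 h.

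Interferon response genes did not follow the acute-phase genes: 3 of 30 tested members rose (10%, near the background of 11%) and 0 fell, and the median difference was 0.02 without replicate 3. IFITM1, a membrane protein that blocks viral entry, had 9.98, 10.04 and 9.75 at 48 h, against 8.69, 8.66 and 9.03 at 24 h (1.25 ± 0.08, adjusted p = 2.72e-13). The other risen members were OAS1 (0.44) and DDX60 (0.36, or 0.97 with all arrays), whereas MX1 (0.17), ISG15 (-0.07) and IFIT3 (0.04) were not called. In the list 27 of 30 members were not called both ways, among them IFITM3 (0.42), which was called without replicate 3 only. BST2, which is not on this list, rose.

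Immediate early genes rose in part. Of 17 tested members 8 rose and 0 fell (47.1% risen, beside 11% of all tested genes), or 4 with HCC827 arrays alone in the fit. EGR1, a zinc finger factor induced by growth signals within minutes, had 10.27, 10.53 and 10.25 at 48 h, against 8.81, 8.75 and 8.67 at 24 h (1.57 ± 0.15 without replicate 3, 2.97-fold, adjusted p = 1.57e-09). Of its 6 probe sets 5 were called higher, with differences between 0.17 and 1.83. FOS, its AP-1 counterpart, had 6.72, 7.15 and 6.72 at 48 h, against 5.70, 5.69 and 4.30 at 24 h, and ZFP36, which destabilizes cytokine mRNAs, had 9.31, 9.48 and 9.47 at 48 h, against 8.61, 8.67 and 8.38 at 24 h. Of the 4 probe sets of FOS 2 were called higher, with differences between 0.10 and 1.17. ATF3, DUSP1, JUN, IER2 and KLF6 rose by between 0.27 and 0.49 without replicate 3. With all arrays ATF3 rose by 0.78, DUSP1 by 0.80 and IER2 by 0.22.

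The wider output of the ERK pathway was mixed, with 5 of 20 tested genes risen and 2 fallen (25% and 10%, beside 11% and 7.65%) and a median difference of 0.03 without replicate 3. DUSP6, the ERK phosphatase that tracks pathway activity, rose by 0.43 ± 0.08 (adjusted p = 0.000136) without replicate 3 and 0.77 with all arrays, with 8.92, 8.95 and 8.93 at 48 h, against 8.55, 8.47 and 7.48 at 24 h. FOSL1 and CCND1, cyclin D1, fell by 0.42 and 0.38 without replicate 3. SPRY2 (0.11), SPRY4 (-0.07), ETV4 (0.08) and ETV5 (-0.02), which are feedback and transcription factors of the same pathway, were not called both ways. MYC was not called (0.15, adjusted p = 0.158).

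Neither MET nor EGFR was called. MET had 12.21, 12.26 and 12.21 at 48 h, against 12.18, 12.43 and 11.43 at 24 h, and was not called (0.21 ± 0.14 with all arrays, adjusted p = 0.283, and -0.08 ± 0.08 without replicate 3, adjusted p = 0.48). Its 6 probe sets disagreed, with differences from -0.08 to 0.50 without replicate 3, and 3 of them were called higher. EGFR averaged 12.05 ± 0.046 at 48 h and 12.03 ± 0.128 at 24 h (SD, n = 3 each), and was not called either. HGF, the ligand of MET, did not pass the filter on low signal. In the MET and RON list 3 of 12 tested members rose and 0 fell (25% risen, beside 11%): PLXNB2, a semaphorin receptor, by 0.67, and SPINT1 and SPINT2, inhibitors of the proteases that activate hepatocyte growth factor, by 0.57 and 0.23. Among ERBB ligands and receptors 2 of 11 rose and 1 fell (18.2% and 9.09%, not far from the 11% and 7.65% of all tested genes). ERBB3, the kinase-poor partner of EGFR and MET, had 8.53, 8.45 and 8.42 at 48 h, against 7.84, 7.89 and 8.36 at 24 h (0.60 ± 0.05, adjusted p = 9.51e-10), and HBEGF, a ligand of EGFR, fell by 0.68. Of the 3 probe sets of ERBB3 2 were called higher, with differences from -0.003 to 0.60.

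FOXO targets and receptor feedback genes rose widely. FOXO factors are held out of the nucleus by AKT, and their targets include receptors and genes of cell-cycle arrest. Of 19 tested members 13 rose and 1 fell (68.4% and 5.26%, beside 11% and 7.65% of all tested genes), and the fallen one was IRS1 (-0.32), although 7 rose with HCC827 arrays alone in the fit. BCL6, a transcriptional repressor, had 8.02, 8.04 and 8.07 at 48 h, against 6.89, 6.91 and 6.71 at 24 h (1.14 ± 0.05, 2.21-fold, adjusted p = 6.36e-17). CCNG2, an atypical cyclin linked to arrest, rose by 0.83, PDK4, which restrains pyruvate entry into the citric acid cycle, by 0.75, and TNFSF10, the death ligand TRAIL, by 0.68. Of the 2 probe sets of PDK4 only 1 was called, and the other differed by 0.02. The receptors INSR (0.45) and IGF1R (0.39) and the factors FOXO1 (0.40) and FOXO3 (0.17) rose as well.

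Of 15 tested BCL2 family genes 7 rose and 0 fell (46.7% risen, beside 11% of all tested genes), but 4 rose after centring, 2 with HCC827 arrays alone and 2 with each gene averaged over its probe sets. BMF and BBC3, BH3-only proteins that trigger apoptosis, rose by 0.82 and 0.62 without replicate 3, and MCL1, which protects from it, by 0.25. BMF had 7.06, 7.07 and 7.01 at 48 h, against 6.31, 6.15 and 6.71 at 24 h. Of its 3 probe sets 1 was called higher (differences from 0.17 to 0.82), as was 1 of the 2 of BBC3 (0.12 and 0.62). The 6 probe sets of MCL1 disagreed, with 2 called higher and 1 lower. BCL2L11, the BIM gene, was not called (0.24), nor was BCL2L1 (-0.20).

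Genes of ribosome biogenesis fell together. Of 21 tested members 16 fell and 0 rose (76.2%, where 7.65% of all tested genes fell), with a median difference of -0.41 with all 6 arrays and -0.35 without replicate 3. With each gene averaged over its probe sets 10 fell. RRP12, which exports ribosomal subunits, had 8.63, 8.67 and 8.69 at 48 h, against 9.25, 9.17 and 9.56 at 24 h (-0.55 ± 0.06 without replicate 3, adjusted p = 3e-08). NOP16, a nucleolar assembly factor, had 9.94, 9.94 and 9.86 at 48 h, against 10.39, 10.48 and 10.47 at 24 h. RRS1 had 10.71, 10.74 and 10.72 at 48 h, against 11.31, 11.34 and 10.52 at 24 h, so the groups overlapped through 24 h replicate 3 alone (-0.60 without it, -0.34 with it). LYAR (-0.55), UTP20 (-0.55), GAR1 (-0.53) and PPAN (-0.49) were close to these without replicate 3. The members not called both ways were FBL (0.01), NPM1 (-0.11), NPM3 (-0.09), NOP58 (-0.23) and DDX21 (-0.28).

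Genes of the G1/S step and DNA replication fell in 10 of 22 tested members (45.5%, beside 7.65% of all tested genes), with 0 risen and a median of -0.29 without replicate 3 (-0.24 with all arrays). Without replicate 3 all 22 differences were below 0, from -0.94 to -0.04. CCNE2, cyclin E2, had 8.03, 7.89 and 7.89 at 48 h, against 8.86, 8.89 and 8.29 at 24 h (-0.94 ± 0.12, adjusted p = 3.03e-07). Its call with all 6 arrays was lost with the mean of its probe sets (-0.37, adjusted p = 0.209). CDC6, which loads the replicative helicase, had 10.03, 9.98 and 10.10 at 48 h, against 10.54, 10.57 and 10.79 at 24 h (-0.52 ± 0.08, adjusted p = 5.21e-06), and RRM2, a subunit of ribonucleotide reductase, fell by 0.53. CDT1, CDC45, CCNE1, E2F1, MCM3, MCM4 and MCM7 (-0.13, or -0.26 with all arrays) were the others. PCNA (-0.27) was called without replicate 3 only. Without 24 h replicate 1, 6 members of the list fell.

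Mitotic genes, which act later in the cycle, did not move with them. Of 24 tested members 2 rose and 1 fell (8.33% and 4.17%, beside 11% and 7.65%), and the median difference was 0.00 without replicate 3 and 0.09 with all 6 arrays. CCNB2, a B-type cyclin, had 10.35, 10.38 and 10.34 at 48 h, against 10.11, 10.08 and 10.05 at 24 h, and TOP2A rose by 0.24 without replicate 3. CDC20, the activator of the anaphase-promoting complex, fell by 0.24, or by 0.41 with all arrays. MKI67, the proliferation marker, was not called both ways (0.24), nor were CDK1 (0.00) and PLK1 (-0.06).

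Matrix and mesenchymal genes fell in part. Of 15 invasion and matrix adhesion genes 5 fell and 1 rose (33.3% and 6.67%, beside 7.65% and 11%), although only 3 fell without an intensity trend, with HCC827 arrays alone or with each gene averaged over its probe sets. The fallen count was 2 without 24 h replicate 1 and 3 without 48 h replicate 1 or 2. MMP1, interstitial collagenase, had 5.02, 4.63 and 4.69 at 48 h, against 6.84, 6.60 and 5.65 at 24 h, and fell to 0.261 of its 24 h level without replicate 3 (-1.94 ± 0.13, adjusted p = 3.11e-12). Its level at 48 h lay below the array median. MMP9 fell with it, and MMP7, matrilysin, rose by 0.49, or by 1.10 with all arrays. LAMB3, ITGA2 and ITGB1 fell by 0.39, 0.19 and 0.09. Of 9 mesenchymal genes 3 fell and 1 rose (33.3% and 11.1%, beside 7.65% and 11% of all tested genes). SNAI2, the repressor Slug, had 8.28, 8.22 and 8.08 at 48 h, against 9.01, 9.04 and 8.08 at 24 h, so 24 h replicate 3 matched the 48 h arrays (-0.83 without it, -0.51 with it). VIM and ZEB1 fell by 0.35 and 0.55, and FN1, fibronectin, rose by 0.34, without replicate 3, and FN1 by 0.59 with all arrays.

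Stress and metabolic lists are given by their counts, beside 11% of all tested genes risen and 7.65% fallen. Both directions together, the called shares were 38.5% for heat shock proteins, 35.3% for p53 targets and for actin and SRF targets, 33.3% for the NRF2 and ATF4 lists and 31.2% for oxidative phosphorylation, where 18.7% of all tested genes were called. In the NRF2 antioxidant list 6 of 18 rose and 0 fell, led by the aldo-keto reductase AKR1C3 (0.78) and the transketolase TKT (0.45). The 3 probe sets of TKT differed by -0.17 to 0.45, and 2 of them were called higher. Of 14 hypoxia genes 4 rose and 0 fell, with NDRG1 at 0.83, but 1 rose with HCC827 arrays alone and 2 without 24 h replicate 1. Of 16 ER chaperones 4 rose and 0 fell, but 1 rose with HCC827 arrays alone and 2 without 24 h replicate 2. ATF4 and amino acid genes rose in 5 and fell in 3 of 24, among them DDIT4 (0.53) and PSAT1 (-0.31). In the p53 list 4 of 17 rose and 2 fell, with GDF15 at 0.92 and AEN at -0.63. Actin and SRF targets rose in 2 and fell in 4 of 17. Heat shock proteins rose in 2 and fell in 3 of 13, lysosome and autophagy genes rose in 3 and fell in 0 of 18, and oxidative phosphorylation genes rose in 3 and fell in 2 of 16. Glycolysis and cholesterol synthesis each had 1 of 16 risen and 1 fallen, and MHC class I antigen presentation had 3 of 14 risen and 1 fallen. YAP and TEAD targets had 0 of 17 risen and 2 fallen.

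Set beside the DMSO arrays, few genes differed at 24 h and many at 48 h. Without replicate 3, 24 h differed from DMSO at 20 genes (0.161%), 18 higher (0.145%) and 2 lower (0.0161%), while 48 h differed from DMSO at 4648 genes (37.5%), 2296 higher (18.5%) and 2352 lower (19%). Both comparisons use the same 3 DMSO arrays, and 24 h then has 2 arrays. The 12 leading risen genes differed from DMSO by 1.34 to 2.14 at 48 h, where all 12 were called, and by -0.01 to 0.57 at 24 h, where 2 were called. The 12 leading fallen genes differed from DMSO by -1.12 to -0.68 at 48 h, where all 12 were called, and by -0.15 to 0.27 at 24 h, where 0 were called. The 48 h and 24 h arrays that chose these 24 genes enter these comparisons, so the values are a description. The median of the acute-phase list was 1.44 at 48 h and 0.13 at 24 h, that of the chemokine list 0.59 and 0.14, and that of ribosome biogenesis -0.37 and -0.03. The first 2 lists include C3, FGG, SAA2, CXCL6 and IL6, which passed the filter only through the 48 h arrays.

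A few genes already differed from DMSO at 24 h when replicate 3 was left out, which leaves 2 arrays at 24 h. With it included, 4 genes were called. TSPAN8, with 8.49, 8.42 and 8.34 in DMSO, was 0.55 ± 0.05 above it at 24 h (adjusted p = 1.88e-07) and 1.82 above it at 48 h. Its 24 h levels were 9.03, 8.91 and 7.70, so replicate 3 lay below every DMSO array. AGR2 had 7.91, 7.88 and 7.79 in DMSO and was 0.38 above it at 24 h and 1.73 above it at 48 h. Its 24 h levels were 8.24, 8.24 and 7.80, so replicate 3 lay within the DMSO range. SPINK1, a trypsin inhibitor, was 0.46 above DMSO at 24 h and 1.25 above it at 48 h, and PDIA3, a disulfide isomerase, 0.42 and 0.99. HMGCS1, of cholesterol synthesis, was 0.27 above DMSO at 24 h and -0.04 from it at 48 h. SPINK1, PDIA3 and HMGCS1 were picked after their values were seen.

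**Figure D4:**
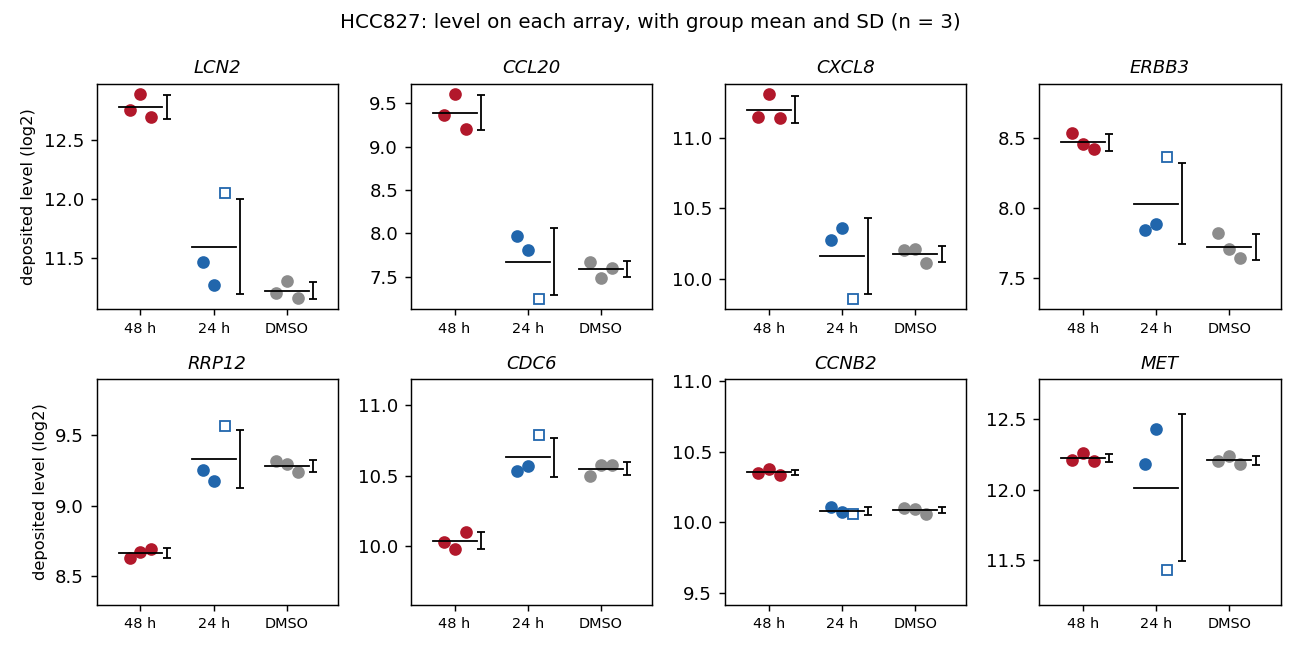
Deposited log2 level on each array at 48 h, at 24 h and in DMSO, for 8 genes, with the group mean as a bar and the SD (n = 3) beside it; the open square is 24 h replicate 3, and the vertical axes differ in range. LCN2, CCL20 and CXCL8 are highest at 48 h, RRP12 and CDC6 are lowest at 48 h, and MET is level apart from the open square at 11.43.

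The other lines were given the same inhibitor for the same times. Between 48 h and 24 h, EBC-1 differed at 2972 genes (24%), 1310 higher at 48 h (10.6%) and 1662 lower (13.4%). MKN-45 differed at 4918 genes (39.7%), 3073 higher (24.8%) and 1845 lower (14.9%). The difference between times was itself different in HCC827 and EBC-1 at 3503 genes (28.3%; 15.1% higher in HCC827 and 13.2% lower) and in HCC827 and MKN-45 at 4793 (38.7%; 16.2% higher in HCC827 and 22.5% lower), without HCC827 24 h replicate 3. At 1053 of the 12386 tested genes it was higher in HCC827 than in both other lines, and at 1117 lower. The test against EBC-1 and that against MKN-45 contain the same HCC827 difference, so calls in both are not independent. The leading genes of HCC827 were chosen by the HCC827 difference that these tests contain, so their values in the other lines are a description. SAA1 differed between times by 1.58 in HCC827, by 0.10 in EBC-1 and by 0.08 in MKN-45, and LCN2 by 1.41, -0.86 and 0.39.

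Over the acute-phase list the median difference was 1.21 in HCC827, 0.02 in EBC-1 and 0.15 in MKN-45, and 10 of 12 members were higher in HCC827 than in EBC-1 and 9 than in MKN-45. Of the 12, C3, FGG and SAA2 passed the filter only through the HCC827 48 h arrays. For them a higher difference in HCC827 was favoured in advance. For the chemokine list the medians were 0.52, -0.03 and 0.19, with 12 of 20 members higher and 1 lower in HCC827 than in EBC-1, and 6 higher and 3 lower than in MKN-45. The same limit of the filter holds for its members CXCL6 and IL6. The ribosome biogenesis medians were -0.35, -0.02 and 0.09, with 13 of 21 members lower in HCC827 than in EBC-1 and 16 lower than in MKN-45, against 1 higher in each.

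Mitotic genes had a median difference near 0 in HCC827 and a negative one in the other lines. The median was 0.00 in HCC827, -0.93 in EBC-1 and -0.75 in MKN-45, and 20 of 24 members were higher in HCC827 than in EBC-1 and 19 than in MKN-45. KIF20A, a kinesin of cell division, differed between times by 0.14 in HCC827, by -2.24 in EBC-1 and by -1.88 in MKN-45, and TOP2A by 0.24, -2.32 and -1.58. For the G1/S list the medians lay closer, at -0.29, -0.18 and -0.13, and 4 of its 22 members were higher and 4 lower in HCC827 than in EBC-1, and 4 higher and 7 lower than in MKN-45. CDC6 was a fallen gene of HCC827 (-0.52) with positive differences in EBC-1 (0.81) and MKN-45 (1.12). Only differences within a line were compared between the lines, and not their levels.

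**Figure D5:**
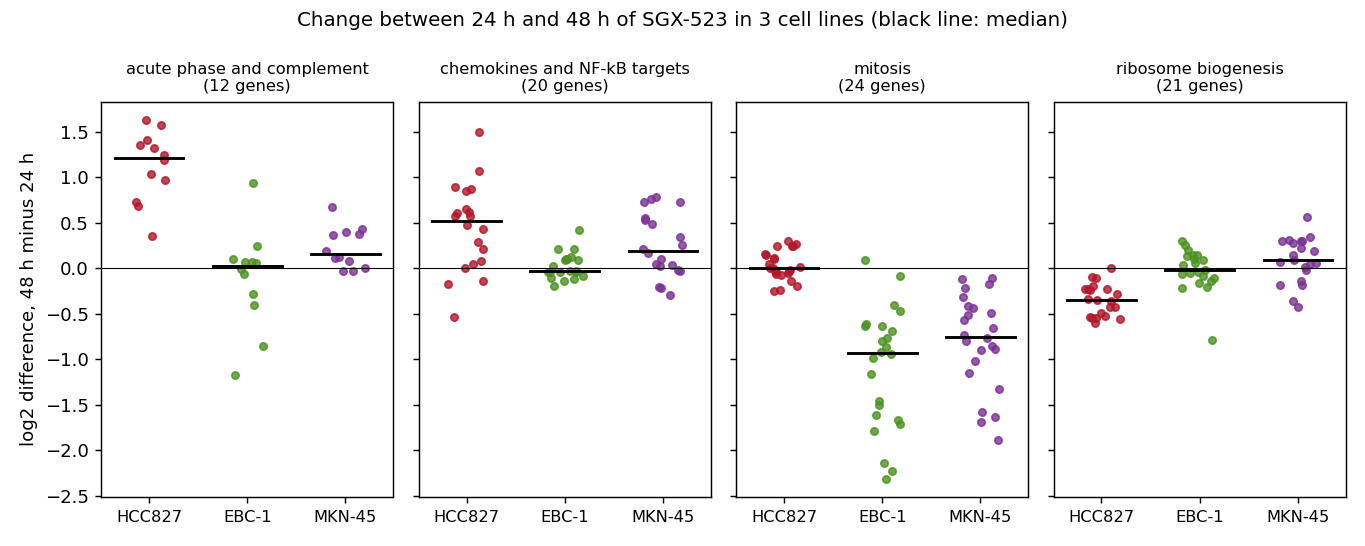
Log2 difference (48 h minus 24 h of SGX-523) of each tested member of 4 gene lists in HCC827 (24 h replicates 1 and 2), EBC-1 and MKN-45, with a black bar for the median. HCC827 lies highest for the acute-phase list (1.21 against 0.02 and 0.15) and lowest for ribosome biogenesis, and its mitotic genes stay near 0 where the other lines lie at -0.93 and -0.75. C3, FGG, SAA2, CXCL6 and IL6 passed the filter only through the HCC827 48 h arrays.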

How the data were processed

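Human cell lines were profiled on 3' expression arrays, 27 in 9 groups of 3. The deposited table holds 49395 probe sets as log2 values, from 1.87 to 14.38. How the arrays were normalized is not given in the sources consulted. The submitters' processing notes name MAS5 without its role. Of the probe sets 102 were controls, 44988 had 1 gene, 1832 several and 2473 none in the platform annotation, and Entrez IDs linked 44961 of those with 1 gene to RefSeq. Probe sets at or above the array median on 3 or more of the 27 arrays were kept, 27359 of them with 1 gene, and each of 12386 genes was represented by its brightest kept probe set.

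The tests used limma 3.58.1 under R 4.3.3 (lmFit, eBayes with an intensity trend) on 9 group means, with 18 residual degrees of freedom for all arrays and 17 without HCC827 24 h replicate 3, which was then dropped from every group comparison unless stated. The adjusted p is Benjamini-Hochberg over all 12386 genes, with a threshold of 0.05. The median standard error of a difference was 0.110 with all arrays and 0.0903 without that array, and precision is limited by how few arrays there are.

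Groups were taken from the titles, since some control arrays have source names in which the cell line's number runs upwards. The comparison, the 36 gene lists and the naming rule were chosen with earlier results of these data known. The rule took 12 genes per direction with non-overlapping groups and a level above 7.71, the median over genes, ranked by the smaller difference of both fits; 3 genes per list by p; MET, HGF, EGFR and ERBB3; 5 per direction that differed from both other lines; and 5 per direction in which 24 h replicate 3 deviated. Other genes named were picked after their values were seen. Listed genes without a tested probe set were not analysed here. The method was tested on simulated data, where false calls stayed under the threshold without replicate 3 but exceeded it with all 6 arrays, in which that array was given its wider spread. The other simulated arrays had independent normal deviations with the fitted spread, the same in every group, as the test assumes. The simulation therefore cannot speak for unequal or shared deviations among the real arrays. Alternatives were another scaling, pseudocount, filter, variance model, set of arrays, array weights, replicate block, probe set rule and each array left out. Same-numbered arrays at 48 h and 24 h deviated together with r of 0.106, 0.045 and 0.159, and differently numbered ones with r from -0.166 to 0.097. With so few arrays these values cannot decide whether same-numbered cultures were paired.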

Additional observations from a re-analysis of the deposited data

Results flagged for a closer look

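Everything listed here was singled out because its change between 24 h and 48 h differed between HCC827 and another line by a test of that difference, without HCC827 24 h replicate 3. Genes with a higher difference in HCC827 numbered 1868 against EBC-1 and 2002 against MKN-45, and those with a lower difference 1635 and 2791. On the log2 scale, HCC827 minus EBC-1 and HCC827 minus MKN-45, the leading positive values were 2.38 and 2.03 for KIF20A, 2.05 and 1.90 for CCNB2, 2.56 and 1.82 for TOP2A, 1.71 and 1.74 for DLGAP5, and 1.71 and 1.62 for S100A9. The leading negative values were -1.71 and -1.73 for MIR22HG, -1.63 and -2.26 for BAMBI, -1.32 and -1.63 for CDC6, -1.23 and -1.56 for THBS1, and -1.21 and -1.22 for PCOLCE2. In HCC827 alone KIF20A (0.14), DLGAP5 (0.04) and BAMBI (-0.19) were not called, so their values rest on the changes in EBC-1 and MKN-45.

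The leading genes of HCC827 were chosen by their difference in HCC827, which this comparison contains, so what follows is a description. The gap to the nearer of EBC-1 and MKN-45 was, among the risen, 0.962 for S100P, 1.48 for SAA1, 1.45 for EGR1, 0.725 for CCL20, 0.968 for AGR2 and 1.56 for LY6D. It was 0.816 for CORO2A, 0.968 for TSPAN8, 0.811 for CFB, 1.34 for BST2 and 1.02 for LCN2. Among the fallen it was -0.976 for MMP9, -1.18 for TMEM158, -0.706 for NEXN, -0.827 for CHAC2, -0.904 for PMEPA1 and -0.671 for CCNE2. It was -0.988 for FJX1, -0.742 for GPATCH4, -1.04 for PIGW, -0.564 for ODC1 and -0.971 for DPH2. AFAP1L2 was the leading gene not called against both (adjusted p = 0.071 against MKN-45).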

How the results depend on the processing

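No difference of the 12 leading genes per direction changed sign under any alternative run, but the majority direction of the calls did. With all 6 arrays 1956 genes were higher and 1330 lower, which became 1506 and 2009 after centring and 1785 and 1877 after quantile normalization. Called both ways, 1366 and 948 became 1108 and 1299 after centring. Without replicate 3, 1743 and 1821 became 1906 and 1869 after quantile normalization. Of 96 alternative counts of calls, 85 stayed within 1.5 times the main count. With all 6 arrays the count fell to 1059 when only HCC827 arrays entered the fit, and the count called both ways was 1059 there and 3665 with array weights. The cause was not tested. Leaving out 1 array gave 2326 to 4521 genes with all 6 arrays, 2300 (without 24 h replicate 2) to 3159 without replicate 3, and 1543 to 2019 called both ways. It gave 2690 to 3306 for the difference from EBC-1, 3878 to 4471 for that from MKN-45 and 4003 to 4207 for 48 h against DMSO. For 24 h against DMSO it gave 6 to 17 genes, a pseudocount of 64 gave 57, and including 24 h replicate 3 gave 4. Including that array, chosen after seeing the data, left 2754 genes for 48 h against DMSO, a comparison that shares only its spread. With the replicate block, 3230 genes were called with all 6 arrays, 3438 without replicate 3, 2222 both ways and 6 for 24 h against DMSO, where the main count was 20. List counts stayed within 1.5 times in 214 of 234 cases and the leading genes kept their call in 887 of 888. Small changes of dim genes are limited by 3 arrays per group.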

Other observations

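The lists that follow stand beside 11% of all tested genes risen and 7.65% fallen. Of 11 keratinization and squamous genes 2 rose (LCN2 and S100A9) and 2 fell, together 36.4%, where 18.7% of all tested genes were called. SPRR1B, a precursor of the cornified envelope, fell, with 5.35, 5.59 and 5.12 at 48 h, against 6.51, 6.48 and 6.79 at 24 h, and SFN, the stratifin of stratified epithelia, fell by 0.44 without replicate 3. Among 9 tested lung lineage genes 1 rose and 0 fell: FOXA1, a pioneer factor of endoderm, rose by 0.29, while NAPSA (0.45) and NKX2-1 (0.21) were not called both ways. Of 14 histone genes 2 rose, among them the linker histone H1-10, with 9.79, 9.81 and 9.82 at 48 h, against 9.15, 9.06 and 9.72 at 24 h. Of 9 metallothioneins MT1F alone rose, by 0.39. Of 8 reference genes YWHAZ alone was called both ways, with a fall of 0.16, or 0.24 with all arrays. None of the 4 keratins, 2 tested fibroblast genes or 5 tested leukocyte genes was called both ways.

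NCOA7, an oxidation-resistance coactivator picked after its values were seen, had 10.92, 10.94 and 10.80 at 48 h, against 9.77, 9.79 and 9.66 at 24 h. GABARAPL1, a protein of autophagosome membranes, had 7.97, 7.96 and 7.87 at 48 h, against 7.21, 7.38 and 6.84 at 24 h. Both genes lay higher on every 48 h array than on any 24 h array.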
